A study of Homo sapiens with 12 samples.

Results

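Collagen chain genes, the 44 genes whose symbol is COL, a type number, A and a chain number, were described in the mRNA of 4 groups of clear cell renal cell carcinoma (ccRCC) cells. They were picked by symbol alone from the 45478 genes of the count table and cover 28 collagen types. Antisense transcripts, divergent transcripts and pseudogenes that carry a collagen symbol, 9 in all, were left out.

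The groups were 786-O and A498, parental human ccRCC lines in which the tumor suppressor VHL is inactive, and the sunitinib-resistant lines named for them. The resistant lines were obtained by growth in rising doses of sunitinib, an inhibitor of VEGF and PDGF receptors, over 4 months or more than 20 passages. Resistant 786-O was established at 4 μM and resistant A498 at 2 μM. Below, 786-O and A498 without the word resistant mean the parental lines. Each resistant line is a single selected culture, all cells were grown without other cell types, and the treatment label reads none, while the sample titles carry the code veh, which the sources do not spell out. Each group had 3 replicate libraries. Nothing in the sources states that these came from separate cultures, so the p-values measure the spread between libraries, which may be technical. The batch labels follow the groups one to one, and the effects of batch and of group cannot be told apart.

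Collagens are triple helices of 3 chains, and many types need a fixed set of chains from different genes. Fibrillar collagens form the cables of connective tissue, type IV forms the sheet of basement membranes, and the other classes coat fibrils, tie basement membranes to the tissue or span the cell membrane. In the kidney, tubule and glomerular basement membranes differ in which type IV chains they hold, and mutations of COL4A3, COL4A4 or COL4A5 cause Alport syndrome. Clear cell tumors arise from the tubule epithelium.

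Total counts were 20042519 to 47972092 per library. The 44 genes took 0.244% to 0.249% of counts in 786-O and 0.425% to 0.502% in its resistant line. The share was 0.393% to 0.401% in A498 and 0.351% to 0.366% in resistant A498. Libraries labelled resistant A498 resembled resistant 786-O and 786-O more than A498. Across the 19929 genes tested, their median correlation of log2 levels was 0.988 to 0.989 with resistant 786-O, 0.967 to 0.968 with 786-O and 0.918 with A498, a description across genes that are not independent. For this reason their levels are set beside both parental lines. Replicate 2 of resistant 786-O stood apart from its mates, with an SD of log2 differences of 0.28 against 0.16 and 0.17 for replicates 1 and 3. Results of named genes whose call or direction rests on it are given with and without it. PAX8, a kidney lineage factor, averaged 199.7 to 312 CPM (CPM is the count scaled to a common sequencing depth, here with TMM-normalized library sizes), whereas CA9, a classical ccRCC marker, reached no more than 54 counts in any library. Among markers of other cells, the fibroblast gene DCN had at most 4 counts, the endothelial gene CDH5 2 and the T cell gene CD3E 1, but others of these lists were read at up to 625 counts and are given with the lists at the end.

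A first question was how much collagen mRNA each group held and of which class. Summed over the 44 genes, the level was 2640 ± 13.7 CPM (SD, n = 3) in 786-O and 4466 ± 362 CPM in resistant 786-O. A498 had 3992 ± 58.6 CPM, and resistant A498 had 3455 ± 63.8 CPM. The libraries of resistant 786-O lay above all those of 786-O, and the libraries labelled resistant A498 lay below those of A498 and above those of 786-O. In a bulk sample, fewer cells with a transcript and less of it per cell cannot be told apart.

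**Figure D1:**
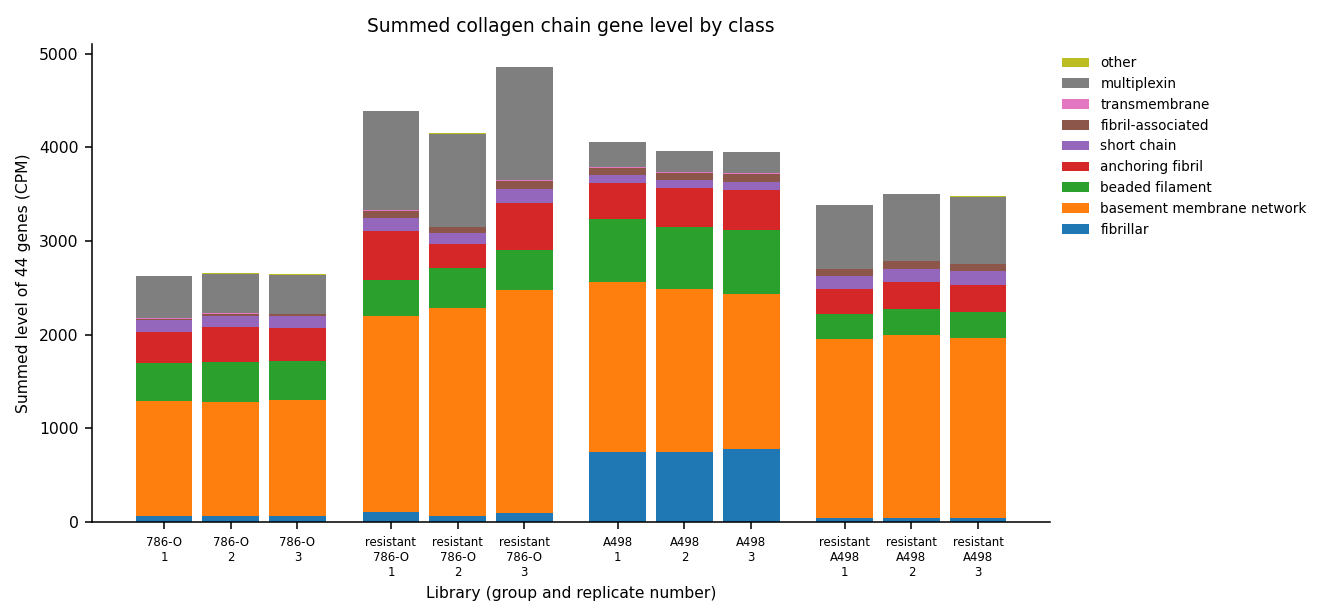
Stacked bars give the summed level of the 44 collagen chain genes in CPM (vertical axis, from 0) in each of the 12 libraries, coloured by collagen class. The wide fibrillar segment, a mean of 761 CPM, is in A498, and the multiplexin segment is widest in resistant 786-O, at a mean of 1089 CPM.

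Basement membrane type IV genes gave the largest class sum in each group, with a mean share of collagen CPM of 46.4% for 786-O, 50.1% for resistant 786-O, 43.4% for A498 and 55.9% for resistant A498. Fibrillar genes gave 2.49%, 2.00%, 19.1% and 1.21% in the same order. Multiplexins, nearly all COL18A1, gave 16.4%, 24.4%, 6.06% and 20.4%, and the beaded filament genes of type VI gave 15.8%, 9.22%, 16.8% and 7.82%. These are shares of reads, in which a long transcript counts for more than a short one. Per kilobase of exon, COL18A1 was the most abundant chain in 786-O (51.2 ± 1.99 CPM per kb), in resistant 786-O (129 ± 13.3) and in resistant A498 (83.1), and COL6A2 was so in A498 (72.3 ± 1.68).

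Of the 44 genes, 33 passed the filter on low counts and were tested, and a gene could pass through a single group in which it was high. The 11 others had no more than 9 counts in any library. They were COL1A2, COL3A1, COL6A5, COL6A6, COL9A1, COL10A1, COL19A1, COL21A1, COL23A1, COL25A1 and COL26A1. COL9A1 had 0 counts in every library, and a count of 0 allows up to 3 counts in each.

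The change with sunitinib selection was first taken for the pair of 786-O lines. Of the 33 genes, 25 passed the test as higher in resistant 786-O than in its parent and 4 as lower, and 4 did not pass it (edgeR quasi-likelihood test, Benjamini-Hochberg adjusted p under 0.05). Among all genes tested 35.0% were called higher and 33.5% lower. The 25 include COL20A1 and COL22A1, which had 0 counts in 786-O and at most 6 in any library of resistant 786-O. The median log2 fold change was 1.33 over the 33 genes and 0.03 over all genes. With trends of GC content and gene length removed, the median over the collagen genes was lower, at 0.90, and that over all genes was 0.03. Scaling by library size alone raised the share of calls that were higher among all genes from 51.1% to 62.5%, with a shift of the median gene of 0.14, and left 26 collagen genes higher and 4 lower. Without replicate 2 of resistant 786-O the counts were 24 and 5, and the shares of all genes in that fit are not given here.

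Against A498, the libraries labelled resistant A498 had 10 genes that were higher and 17 that were lower, with a background of 36.3% and 36.4%. Against 786-O they had 20 genes that were higher and 6 that were lower, with a background of 31.6% and 32.1%. The 20 include COL5A3, with 1 count in each library of resistant A498 and 0 in 786-O, and COL22A1, with 4 to 7 against 0. COL5A3 missed the threshold when any 1 library of 786-O was left out. Here too library size scaling moved the share of calls that were higher, from 49.6% to 62.6% with a median shift of 0.15, and left 20 higher and 4 lower. The median log2 fold change over the 33 genes was -0.54 against A498 and 0.72 against 786-O. With trends of GC content and gene length removed, these medians were -0.49 and 0.53. Both comparisons with 786-O share its libraries, and so 18 genes higher in both and 3 lower in both are given as a description only. The change differed between the pairs in 30 of 33 genes by the interaction term, against a background of 68.3% of all genes.

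The parental lines differed as well. Relative to A498, 786-O had 6 genes that were higher and 22 that were lower, with a background of 38.2% and 36.1%. Between the resistant lines fewer genes were called, with 2 higher and 13 lower in resistant A498 than in resistant 786-O, and a background of 23.0% in each direction. For 17 of the 33 genes, resistant 786-O was the group whose level lay nearest to that of the libraries labelled resistant A498. Level here means the log2 of the group mean CPM with a constant added, which shrinks differences at low levels. Of 23 genes called over 2-fold apart between the parental lines, 13 lay nearer to 786-O than to A498 in those libraries. The same counts were not made over all genes tested, so both are given as a description only.

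**Figure D2:**
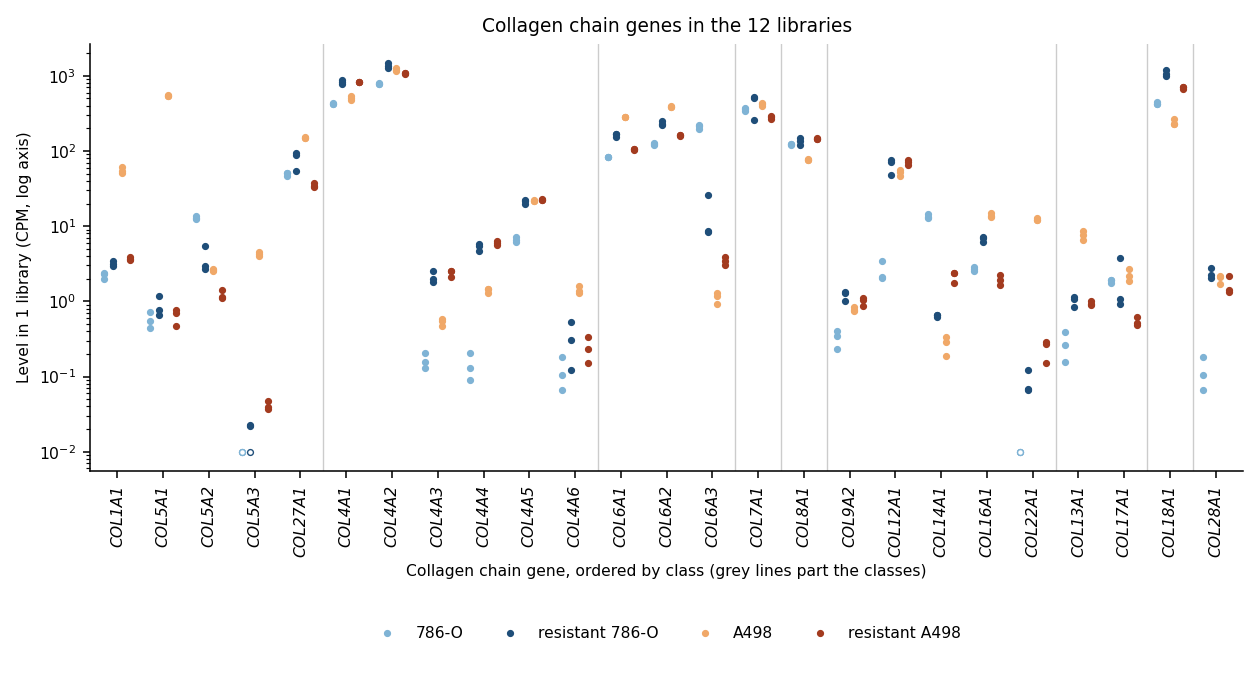
Points give the level of 25 collagen chain genes in each library in CPM (vertical log axis), with 4 groups side by side in each gene and open points at the bottom for libraries at 0. A498 stands alone at the top for COL1A1, COL5A1, COL5A3 and COL22A1, where resistant A498 sits by 786-O and resistant 786-O, and 786-O stands alone at the bottom for COL4A3, COL4A4, COL12A1 and COL28A1.

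Type IV collagen genes lie in 3 head-to-head pairs, in which the genes start close to each other and are read in opposite directions. COL4A1 (chromosome 13, 110148963 to 110307157, minus strand) and COL4A2 (110305812 to 110513209, plus strand) encode the chains of ordinary basement membranes. COL4A3 and COL4A4 share a start region on chromosome 2, and COL4A5 and COL4A6 do so on chromosome X. These positions are from GENCODE on GRCh38. In RefSeq on GRCh38.p14, 126 bases part the starts of COL4A1 and COL4A2, 418 bases those of COL4A4 and COL4A3, and 379 bases those of COL4A6 and COL4A5.

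The stretch between or before the starts is shown for each pair, because the pairs share these stretches and are compared as pairs. Each is on the plus strand, 5′ to 3′, and ends at the base before the start of the plus-strand gene. Capitals mark CCAAT and GGGCGG on either strand (ATTGG and CCGCCC in reverse), no 2 of which overlap.
COL4A1 and COL4A2, chr13:110307158-110307283: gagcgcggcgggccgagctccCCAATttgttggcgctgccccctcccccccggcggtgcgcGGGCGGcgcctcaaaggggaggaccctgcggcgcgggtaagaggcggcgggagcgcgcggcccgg
COL4A4 and COL4A3, chr2:227164374-227164623: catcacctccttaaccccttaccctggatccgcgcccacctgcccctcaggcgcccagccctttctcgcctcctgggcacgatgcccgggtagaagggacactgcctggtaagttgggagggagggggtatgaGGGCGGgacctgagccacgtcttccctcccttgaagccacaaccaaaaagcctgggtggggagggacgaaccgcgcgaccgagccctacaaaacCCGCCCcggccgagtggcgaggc
COL4A6 and COL4A5, chrX:108439588-108439837: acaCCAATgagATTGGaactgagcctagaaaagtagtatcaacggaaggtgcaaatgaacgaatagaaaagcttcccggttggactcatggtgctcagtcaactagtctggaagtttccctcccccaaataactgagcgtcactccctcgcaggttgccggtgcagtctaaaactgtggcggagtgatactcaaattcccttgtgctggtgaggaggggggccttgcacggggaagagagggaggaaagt

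The first window, 126 bases long, held 1 CCAAT and 1 GGGCGG and had a GC content of 80.2%. The second held 2 GGGCGG and no CCAAT at 66.4% GC, and the third held 2 CCAAT and no GGGCGG at 51.2%. TATAAA, searched on both strands, was in none of them. Among 35116 RefSeq windows of 250 bases before a start, 32.0% held CCAAT, 42.6% GGGCGG and 10.7% TATAAA, with a median GC content of 58.0%. For windows of 126 bases the shares were 21.1%, 34.6% and 5.87%. A match of letters is not a binding site.

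All 6 type IV genes were called higher in resistant 786-O than in 786-O (35.0% of all genes tested). In resistant A498 3 were higher and 2 lower than in A498 (36.3% and 36.4% of all genes). COL4A1 and COL4A2 were the most highly read chains of the class. COL4A1 had 422, 426 and 437 CPM in 786-O, 790.2, 839 and 883 in resistant 786-O, 531, 511 and 478 in A498, and 827, 839 and 816 in resistant A498. Both resistant lines lay above both parental lines, with no overlap. Relative to 786-O, the log2 fold change was 0.97 (SE 0.05, adjusted p = 3.2e-10) in resistant 786-O and 0.95 (SE 0.05, adjusted p = 4.4e-10) in resistant A498, and resistant A498 was 0.71 above A498 (SE 0.05).

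COL4A2 had 796, 785 and 789 CPM in 786-O, 1279, 1354 and 1469 in resistant 786-O, 1258, 1196 and 1150 in A498, and 1053, 1087 and 1077 in resistant A498. All libraries of resistant 786-O lay above those of 786-O (log2 0.79, SE 0.05, adjusted p = 3.8e-09), while those labelled resistant A498 lay just below A498. That last difference, -0.16 (SE 0.05, adjusted p = 0.0094), did not pass the test after leaving out 1 A498 or resistant A498 library in 4 of 6 cases or after scaling by library size (-0.09) or with no filter on low counts (-0.12).

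Because the chains of both genes join in one trimer, their ratio was also computed per kilobase. COL4A1 to COL4A2 was 0.713 ± 0.016 (SD, n = 3) in 786-O, 0.806 ± 0.0135 in resistant 786-O, 0.554 ± 0.0073 in A498 and 1.01 ± 0.018 in resistant A498, with no overlap between groups. Exon lengths of COL4A1 and COL4A2 sum all annotated exons, so the ratio compares groups rather than giving transcript numbers. Antisense genes cover 0.493% of the exon bases of COL4A2. One of them, COL4A2-AS1, carried 541 to 1702 counts per library, at 38.3 CPM per kb in 786-O, 67.9 in resistant 786-O, 60.9 in A498 and 48.3 in resistant A498. COL4A2 itself had 41.0, 70.9, 62.3 and 55.6 CPM per kb, and how far reads of one strand were assigned to the other was not tested.

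COL4A3 and COL4A4, which with COL4A5 make the mature glomerular network, were low in all groups. Both were called higher in each resistant line than in the parental line it is named for. COL4A3 had 5, 8 and 7 counts in 786-O (0.132 to 0.207 CPM) and 1.79 to 2.53 CPM in resistant 786-O, 0.465 to 0.579 in A498 and 2.11 to 2.54 in resistant A498. COL4A4 had 0.0887 to 0.207 CPM in 786-O, 4.67 to 5.74 in resistant 786-O, 1.27 to 1.47 in A498 and 5.56 to 6.41 in resistant A498. Neither gene's resistant libraries overlapped a parental library.

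COL4A4 was 37.0-fold higher in resistant 786-O than in 786-O as a ratio of mean CPM (log2 5.20, SE 0.20, adjusted p = 1.8e-11) and COL4A3 was 12.8-fold higher (log2 3.66, SE 0.24, adjusted p = 3.9e-09). In the libraries labelled resistant A498 the log2 fold changes of COL4A4 and COL4A3 were 5.37 (SE 0.21) and 3.84 (SE 0.25) against 786-O, and 4.27-fold and 4.5-fold higher levels were found against A498. Between the resistant lines they were 0.17 (SE 0.12) for COL4A4 and 0.18 (SE 0.16) for COL4A3, and neither passed the test. The ratio of COL4A3 to COL4A4 per kilobase was 0.384 ± 0.036 in resistant 786-O, 0.370 ± 0.064 in A498 and 0.390 ± 0.066 in resistant A498, and 1.20 ± 0.417 in 786-O, where it rests on 4 to 8 counts. MFF-DT, a transcript of the opposite strand, overlaps 6.82% of the exon bases of COL4A3.

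COL4A5 and COL4A6 had different orders of levels. COL4A5 had 6.10, 6.62 and 7.28 CPM in 786-O, 21.7, 19.5 and 22.5 in resistant 786-O, 21.9, 22.2 and 21.9 in A498, and 22.4, 22.9 and 22.1 in resistant A498. Thus 786-O alone was low, and resistant 786-O was 3.18-fold above it (log2 1.67, SE 0.08, adjusted p = 9.6e-11). Between resistant A498 and A498 the log2 difference was 0.03 (SE 0.07, adjusted p = 0.72).

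COL4A6 was at 1.30 to 1.62 CPM in A498 and at 0.0666 to 0.527 in the 9 other libraries, with 3 to 23 counts. It was lower in resistant A498 than in A498 (log2 -2.61, SE 0.43, adjusted p = 5.9e-05). The libraries of resistant 786-O and 786-O overlapped, and their log2 difference of 1.41 (SE 0.52, adjusted p = 0.026) became 0.85 (adjusted p = 0.14) without replicate 2 of resistant 786-O. It also missed the threshold without replicate 2 (1.34) or replicate 3 (1.10) of 786-O.

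Fibrillar collagens were next examined, since they make up most of connective tissue collagen. Of 9 tested genes, 6 were higher and 1 lower in resistant 786-O than in 786-O (35.0% and 33.5% of all genes). None was higher and 6 were lower in resistant A498 than in A498 (36.3% and 36.4% of all genes). COL1A1 encodes the main chain of type I collagen, and COL1A2 its partner. COL1A1 had 1.99 to 2.42 CPM in 786-O, 2.91 to 3.41 in resistant 786-O, 50.3 to 61.8 in A498 and 3.58 to 3.83 in resistant A498. COL1A2 had 0 or 1 count and COL3A1, the chain of type III collagen, 0 to 4 counts in every library, so that the counts of COL1A1 were not matched by counts of COL1A2 in any group.

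COL1A1 was 15.0-fold lower in resistant A498 than in A498 (log2 -3.90, SE 0.10, adjusted p = 6.1e-14) and 24.6-fold lower in 786-O than in A498. Its rise from 786-O to resistant 786-O was 0.49 (SE 0.12, adjusted p = 0.0017), which fell to 0.11 (adjusted p = 0.40) once trends with GC content and gene length were removed.

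COL5A1, whose type V chain starts and limits fibril growth, separated A498 from the other groups by a wide margin. It had 545, 541 and 554 CPM in A498, with 11631 to 18835 counts. It had 0.552, 0.724 and 0.444 CPM in 786-O, 0.776, 1.17 and 0.656 in resistant 786-O, and 0.708, 0.766 and 0.469 in resistant A498. The libraries of the latter 3 groups overlapped each other, with 12 to 51 counts.

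The level of COL5A1 was 844-fold lower in resistant A498 than in A498 (log2 -9.73, SE 0.13, adjusted p = 4.8e-17) and 953-fold lower in 786-O than in A498 (log2 -9.90, SE 0.13). Against 786-O, the libraries labelled resistant A498 differed by 0.18 (SE 0.28, adjusted p = 0.60), and resistant 786-O by 0.60 (SE 0.22, adjusted p = 0.028). The latter was 0.34 (adjusted p = 0.21) without replicate 2 of resistant 786-O and 0.42 (adjusted p = 0.15) without replicate 3 of 786-O. It also missed the threshold without replicate 1 of 786-O (0.58), with only the 2 groups fitted (0.63) and with the trends of GC content and length removed (0.18).

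COL5A2, the usual partner of COL5A1, had another order. It had 12.9, 12.5 and 13.8 CPM in 786-O, 2.68, 5.40 and 2.95 in resistant 786-O, 2.52, 2.65 and 2.69 in A498, and 1.42, 1.10 and 1.13 in resistant A498. It was lower than in 786-O in both resistant lines. The log2 fold change was -1.83 (SE 0.18, adjusted p = 4.3e-07) in resistant 786-O, or -2.22 without replicate 2, the highest of the group. In resistant A498 it was -3.41 (SE 0.23, adjusted p = 8.3e-09). Per kilobase, COL5A1 to COL5A2 was 137 ± 4.34 in A498 and 0.0291 ± 0.0085, 0.159 ± 0.027 and 0.352 ± 0.095 in 786-O, resistant 786-O and resistant A498.

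COL5A3, another type V chain, had 86 to 149 counts in A498, 0 in each library of 786-O and at most 1 in each library of the resistant lines. At the limit of 3 counts per library, 786-O was at least 57.4-fold lower than A498. The 3 counts of resistant A498 against 357 of A498 gave a ratio of 105-fold, with a 95% counting interval of 35.6 to 510.5.

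COL27A1, a fibrillar chain of cartilage and other tissues, was the most highly read fibrillar gene outside A498. It had 46.2, 50.7 and 50.6 CPM in 786-O, 94.5, 54.7 and 89.5 in resistant 786-O, 148, 149 and 155 in A498, and 32.9, 34.3 and 37.7 in resistant A498. It was thus higher in resistant 786-O than in 786-O (log2 0.69, SE 0.14, adjusted p = 0.00045), with replicate 2 of resistant 786-O near 786-O, and lower in resistant A498 than in 786-O (-0.49, SE 0.15, adjusted p = 0.0087) or A498 (-2.11, SE 0.15). The first of these was 0.28 (adjusted p = 0.055) after the GC content and length trends were removed. It was 0.90 (adjusted p = 3.2e-18) without replicate 2 of resistant 786-O. The second was -0.34 (adjusted p = 0.062) with library size scaling.

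The remaining fibrillar genes were below 2 CPM in every library. COL2A1, the cartilage chain, had 29 to 37 counts in resistant 786-O and 0 to 3 in the other libraries, a ratio of 84.5 over the 1 count of 786-O with a counting interval of 14.8 to 3371. COL11A1 had 21 to 24 counts in resistant 786-O, 8 to 14 in resistant A498, 2 to 7 in A498 and 0 to 5 in 786-O. COL11A2 (0.444 to 1.74 CPM) and COL24A1 (0 to 0.589 CPM) were also tested, and COL11A2 was higher in resistant 786-O than in 786-O by 1.00 (SE 0.31, adjusted p = 0.0102).

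**Figure D3:**
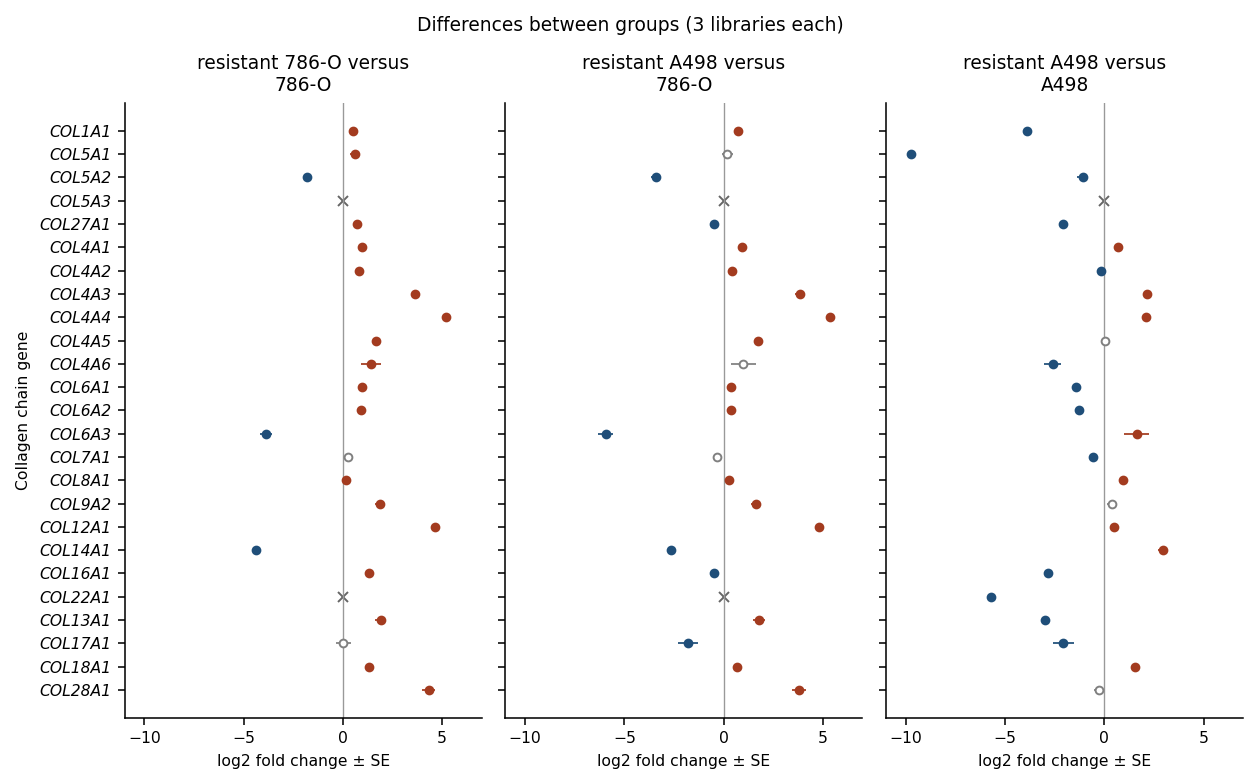
Points give the log2 fold change of 25 collagen chain genes (horizontal axis, bars are the SE of the edgeR fit, n = 3 libraries a group) in 3 comparisons, filled where the adjusted p passed the threshold. Crosses at 0 mark genes for which a group held no more than 3 counts in sum, such as COL5A3. The comparisons with 786-O share its libraries. COL12A1 and COL4A4 lie far to the right in both, at 4.66 and 5.20 in resistant 786-O, and COL5A1 lies at -9.73 in resistant A498 against A498.

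Type VI collagen forms beaded filaments around cells and is built from COL6A1, COL6A2 and one further chain, usually COL6A3. COL6A1 and COL6A2 lie near each other on chromosome 21 (45981770 to 46005050 and 46098112 to 46132848, plus strand), and COL6A3 lies on chromosome 2. COL6A1 had 83.1, 83.1 and 82.1 CPM in 786-O, 152, 168 and 167 in resistant 786-O, 281, 286 and 282 in A498, and 106, 108 and 103 in resistant A498. COL6A2 kept the same order, with means of 124 ± 3.40, 233 ± 15.2, 386 ± 8.97 and 161 ± 4.13 CPM (SD, n = 3).

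Neither gene's groups overlapped. COL6A1 and COL6A2 rose from 786-O to resistant 786-O by 0.97 and 0.92 (SE 0.05 each, adjusted p = 1.3e-10 and 5.6e-10) and were lower in resistant A498 than in A498 (log2 -1.42 and -1.26, SE 0.05 each). The rises in resistant 786-O were 0.50 and 0.38 once the trends with GC content and length were removed, and still passed the test. The ratio of COL6A1 to COL6A2 per kilobase was close between groups, from 0.632 ± 0.025 in resistant A498 to 0.707 ± 0.019 in A498.

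COL6A3 had another order of levels. It had 194, 222 and 213 CPM in 786-O, 8.52, 26.0 and 8.27 in resistant 786-O, 0.926, 1.16 and 1.29 in A498, and 3.84, 3.40 and 3.05 in resistant A498. The groups did not overlap, and 786-O stood far above the rest.

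The level of COL6A3 was 14.7-fold lower in resistant 786-O than in 786-O (log2 -3.89, SE 0.30, adjusted p = 3.1e-08), or -4.65 on the log2 scale without replicate 2, the highest of the group. It was 61.2-fold lower in resistant A498 than in 786-O (log2 -5.93, SE 0.38, adjusted p = 3.5e-09) and 187-fold higher in 786-O than in A498. Resistant A498 lay above A498 by 1.63 (SE 0.63, adjusted p = 0.031). That call was lost in 4 of 6 fits that left out 1 of these libraries, the lowest being 1.48 (adjusted p = 0.095) without replicate 1 of A498. It was also lost with the GC content and length trends removed (1.36). The libraries had 25 to 35 counts in A498 and 71 to 103 in resistant A498. Each of these fits used 1 estimate of the spread for all 4 groups, replicate 2 of resistant 786-O included. The part of that replicate in the lost calls was not tested. The ratio of COL6A3 to COL6A1 per kilobase fell from 0.653 ± 0.045 in 786-O to 0.0223 ± 0.015 in resistant 786-O (0.0136 without replicate 2), and was 0.0010 ± 0.00016 in A498 and 0.0084 ± 0.0009 in resistant A498.

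**Figure D4:**
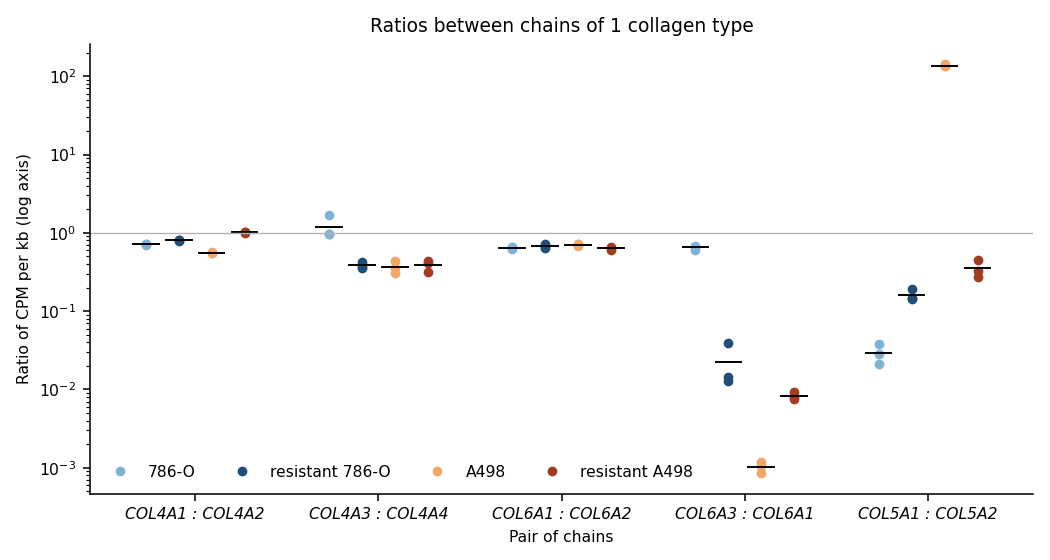
Points give the ratio of CPM per kb of exon between 2 chains of a collagen type in each library (vertical log axis), black bars the mean of 3 libraries, and the grey line a ratio of 1. COL6A1 to COL6A2 stays between 0.604 and 0.724 in the 12 libraries, while COL6A3 to COL6A1 and COL5A1 to COL5A2 span several powers of 10.

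Fibril-associated collagens sit on the surface of fibrils. Of 7 tested, 5 were higher and 2 lower in resistant 786-O than in 786-O (35.0% and 33.5% of all genes). In resistant A498 3 were higher and 3 lower than in A498 (36.3% and 36.4% of all genes). Relative to 786-O, COL12A1 was higher and COL14A1 lower in both resistant lines. COL12A1 (chromosome 6, 75084326 to 75206267, minus strand) encodes a large chain found in tendon and in stressed or remodelled tissue. It had 2.03, 2.12 and 3.42 CPM in 786-O, 70.5, 47.996 and 75.7 in resistant 786-O, 52.1, 45.9 and 55.3 in A498, and 65.6, 76.1 and 71.1 in resistant A498. Only 786-O was low, and the libraries of resistant 786-O overlapped both those of A498 and those of resistant A498.

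COL12A1 was 25.7-fold higher in resistant 786-O than in 786-O (log2 4.66, SE 0.19, adjusted p = 3.3e-11), and the log2 fold change was 4.79 (SE 0.20) for resistant A498 against 786-O. Against A498 it was 0.47 (SE 0.15, adjusted p = 0.0105), which became 0.11 (adjusted p = 0.44) without the GC content and length trends and missed the threshold in DESeq2 (0.45, adjusted p = 0.055).

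COL14A1, which regulates the width of fibrils, had 13.3, 14.6 and 12.9 CPM in 786-O, 0.654, 0.618 and 0.656 in resistant 786-O, 0.290, 0.186 and 0.331 in A498, and 2.35, 2.39 and 1.76 in resistant A498. The groups did not overlap. It was 21.2-fold lower in resistant 786-O than in 786-O (log2 -4.40, SE 0.13, adjusted p = 1.2e-12) and 6.28-fold lower in resistant A498 than in 786-O (-2.65, SE 0.12). Against A498, resistant A498 was 8.06-fold higher (2.95, SE 0.22, adjusted p = 1.1e-08).

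COL22A1, found at tissue junctions such as that of muscle and tendon, had 13.0, 12.1 and 12.1 CPM in A498. It had 0 counts in each library of 786-O, 3 to 6 in resistant 786-O and 4 to 7 in resistant A498. At the limit of 3 counts per library, 786-O was at least 167-fold lower than A498, and resistant A498 was at least 3.18-fold higher than 786-O. Resistant A498 was 52.4-fold lower than A498 (log2 -5.72, SE 0.20, adjusted p = 1.8e-11).

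COL16A1, a minor chain of several fibril types, had 2.55 to 2.84 CPM in 786-O, 6.25 to 7.13 in resistant 786-O, 13.1 to 14.9 in A498 and 1.63 to 2.27 in resistant A498. It was higher in resistant 786-O than in 786-O (log2 1.33, SE 0.11, adjusted p = 4.5e-08) and lower in resistant A498 than in A498 (-2.84, SE 0.12, adjusted p = 1.5e-11). Against 786-O the libraries labelled resistant A498 were lower (-0.47, SE 0.14, adjusted p = 0.0075), which did not pass the test with library size scaling (-0.32) or without resistant A498 replicate 2 (-0.34).

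Type IX collagen decorates cartilage fibrils. COL9A2 had 0.233 to 0.399 CPM in 786-O and 0.753 to 1.33 CPM in the other libraries, and was higher in resistant 786-O than in 786-O by 1.87 (SE 0.23, adjusted p = 3.4e-06). COL9A3, at 0.418 to 1.10 CPM, was lower in resistant 786-O than in 786-O (log2 -0.77, SE 0.25, adjusted p = 0.012). COL20A1 was detected mainly in A498, with 18 to 21 counts, and had 0 counts in 786-O, which was at least 9.55-fold lower.

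COL18A1 (chromosome 21, 45405165 to 45513720, plus strand) is a basement membrane proteoglycan whose end fragment is endostatin, an inhibitor of vessel growth. It had 452, 427 and 420.2 CPM in 786-O, 1060.2, 993 and 1212 in resistant 786-O, 267, 229 and 230.2 in A498, and 678, 714 and 717 in resistant A498. The 4 groups did not overlap, and each resistant line was above both parental lines.

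Against 786-O, COL18A1 was higher by 1.33 on the log2 scale in resistant 786-O (SE 0.07, adjusted p = 6.2e-10). The libraries labelled resistant A498 were higher by 0.70 against 786-O (adjusted p = 6.6e-07) and by 1.54 against A498 (SE 0.07, adjusted p = 6.0e-11). The difference between the values 1.54 and 1.33 was 0.21 (SE 0.10, adjusted p = 0.082). With the GC content and length trends removed, the rise in resistant 786-O was 0.68 and the difference 0.91 (adjusted p = 2.9e-07). The difference also passed the test with no filter on low counts (0.25) and without replicate 2 (0.15) or 3 (0.30) of resistant 786-O or replicate 1 of A498 (0.29). Exons of SLC19A1 on the opposite strand overlap 18.5% of the exon bases of COL18A1. COL15A1, the other multiplexin, had 1 to 22 counts and was higher in resistant 786-O than in 786-O by 2.46 (SE 0.49, adjusted p = 0.00044) and in resistant A498 than in A498 by 1.67 (SE 0.55, adjusted p = 0.013).

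COL7A1 forms the anchoring fibrils below epithelia and ranked among the 5 highest chains per kilobase in each group. It had 339.6, 368 and 357 CPM in 786-O, 522, 261 and 502 in resistant 786-O, 394, 417 and 436 in A498, and 266, 287 and 291 in resistant A498. Replicate 2 of resistant 786-O lay below all libraries of the parental lines, and its mates above them. With it, the difference between resistant 786-O and 786-O was 0.27 (SE 0.17, adjusted p = 0.17). Without it, it was 0.53 (adjusted p = 5.2e-13). Resistant A498 was lower than A498 (log2 -0.56, SE 0.17, adjusted p = 0.0085).

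COL8A1, a short chain of vessel walls and other matrices, had 119.9, 122 and 124 CPM in 786-O, 136, 122 and 148 in resistant 786-O, 76.3, 79.2 and 77.1 in A498, and 146, 146 and 148 in resistant A498. A498 was low, and resistant A498 was 1.89-fold higher (log2 0.92, SE 0.06, adjusted p = 1.9e-09). The difference of resistant 786-O from 786-O was 0.15 (SE 0.06, adjusted p = 0.031) with overlapping libraries. Without replicate 2 of resistant 786-O, the only library of its group to overlap 786-O, it was 0.22 (adjusted p = 9.95e-06). It missed the threshold in each of the fits that left out 1 library of 786-O (0.13 to 0.16). The threshold was also missed without replicate 3 of resistant 786-O (0.10) or of A498 (0.14). The same held with no filter on low counts (0.14) and with only the 2 groups fitted (0.18). COL8A2 was at 2 to 18 counts per library.

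Transmembrane collagens were at low levels. COL13A1, which acts at cell junctions, had 6.60 to 8.55 CPM in A498 and 0.158 to 1.16 CPM elsewhere, and was 8.03-fold lower in resistant A498 than in A498 (log2 -3.00, SE 0.19, adjusted p = 1.8e-09). It was 3.78-fold higher in resistant 786-O than in 786-O (1.90, SE 0.26, adjusted p = 1.3e-05).

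COL17A1, a part of hemidesmosomes, had 1.92, 1.73 and 1.91 CPM in 786-O, 0.919, 3.76 and 1.07 in resistant 786-O, 2.14, 1.86 and 2.69 in A498, and 0.485, 0.622 and 0.509 in resistant A498. Replicate 2 of resistant 786-O lay above and its mates below all libraries of 786-O. The log2 difference between resistant 786-O and 786-O was 0.03 (SE 0.38, adjusted p = 0.95) with that replicate and -0.90 (adjusted p = 5.7e-05) without it. Resistant A498 was lower than A498 (-2.06, SE 0.53, adjusted p = 0.0026).

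COL28A1, a chain with von Willebrand factor A domains, had 3 to 7 counts in 786-O (0.0666 to 0.184 CPM), 2.04 to 2.79 CPM in resistant 786-O, 1.69 to 2.20 in A498 and 1.33 to 2.16 in resistant A498. As with COL12A1, only 786-O was low. It was 20.1-fold higher in resistant 786-O (log2 4.32, SE 0.31, adjusted p = 1.2e-08) and 13.9-fold higher in resistant A498 (3.80, SE 0.34, adjusted p = 1.7e-07), and resistant A498 differed from A498 by -0.28 (SE 0.23, adjusted p = 0.28).

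Genes that process, cross-link and bind collagens were looked at for context. Of 26 genes for folding, hydroxylation and export in the endoplasmic reticulum, 8 were higher, 9 lower and 9 not called in resistant 786-O against 786-O. Among all genes tested 35.0% were higher and 33.5% lower in that comparison. The median log2 difference of the 26 genes was -0.02. Without replicate 2 of resistant 786-O, 8 of the 26 were higher and 15 lower, and the shares of all genes in that fit are not given here. Resistant A498 had 9 of the 26 above and 9 below 786-O by the same test (31.6% and 32.1% of all genes). It had 10 above and 14 below A498 (36.3% and 36.4% of all genes). P4HA3, a prolyl hydroxylase subunit, averaged 5.90 CPM in 786-O, 17.2 in resistant 786-O, 6.43 in A498 and 36.8 in resistant A498, and was higher in resistant A498 than in A498 by 2.51 (SE 0.13). FKBP14, a folding enzyme, averaged 62.7, 35.0, 62.8 and 38.1 CPM in the same order. SEC23A, a coat protein of export vesicles, averaged 121, 71.8, 85.1 and 104 CPM, and the cargo receptor MIA2 19.2, 20.7, 39.5 and 33.4 CPM.

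Among 14 tested genes for propeptide cleavage and cross-linking, 5 were higher and 7 lower in resistant 786-O than in 786-O (35.0% and 33.5% of all genes). In resistant A498 1 was higher and 10 lower than in A498 (36.3% and 36.4% of all genes). PXDN, the peroxidase that cross-links type IV collagen, averaged 28.8 CPM in 786-O, 2.77 in resistant 786-O, 1121 in A498 and 1.96 in resistant A498. Its log2 fold change was -3.40 from 786-O to resistant 786-O (SE 0.23), or -4.07 without replicate 2, and -9.17 from A498 to resistant A498 (SE 0.27). LOX, which cross-links fibrils, averaged 10.1, 0.830, 17.4 and 0.627 CPM. It was lower in resistant 786-O than in 786-O (log2 -3.62, SE 0.18, or -4.06 without replicate 2). LOXL1 averaged 11.1, 3.54, 1.78 and 2.23 CPM. The transglutaminase TGM2 averaged 1055, 783, 1445 and 292 CPM and was lower in resistant A498 than in A498 (log2 -2.31, SE 0.26), while its difference of -0.43 (SE 0.24) from 786-O to resistant 786-O did not pass the test. The libraries of resistant 786-O had 518, 1303 and 529 CPM of TGM2, and without replicate 2, the highest, the difference was -1.01 (adjusted p = 3.4e-21).

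Of 10 tested collagen receptors and uptake genes, 6 were higher and 2 lower in resistant 786-O than in 786-O. Among all genes tested 35.0% were higher and 33.5% lower in that comparison. Resistant A498 had 6 of the 10 above and 3 below 786-O (31.6% and 32.1% of all genes). It had 2 above and 7 below A498 (36.3% and 36.4% of all genes). The receptor kinase DDR1 averaged 23.2 CPM in 786-O, 68.6 in resistant 786-O, 119 in A498 and 50.5 in resistant A498, and the integrin ITGA1, which binds type IV collagen, averaged 4.13, 14.5, 37.0 and 18.4 CPM. MRC2, which takes up collagen fragments, averaged 189.9, 493, 238 and 371 CPM and was higher in resistant 786-O than in 786-O by 1.38 (SE 0.10). ADGRG1, a receptor for type III collagen, averaged 313, 451, 584 and 641 CPM.

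The marker lists of other cells moved between groups at low levels. The summed level of 9 fibroblast and pericyte genes was 13.5 to 14.1 CPM in 786-O, 22.2 to 25.5 in resistant 786-O, 15.0 to 15.7 in A498 and 37.9 to 41.5 in resistant A498, with 5, 7, 7 and 5 of them over 3 counts in a library. LUM averaged 4.45, 7.42, 0.0219 and 16.2 CPM, ACTA2 5.39, 12.7, 10.97 and 7.36 CPM, RGS5 3.24, 2.87, 3.35 and 9.16 CPM, and PDGFRB 0.268, 0.397, 0.241 and 5.49 CPM, while DPT reached at most 1 count and DCN 4. The sum of 5 endothelial genes was 0.181 to 2.72 CPM, with TEK at a mean of 2.23 CPM in A498, and that of 6 T cell genes was at most 0.590 CPM, with CD8A at up to 26 counts. Their part in the collagen levels was not tested.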

How the data were processed

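RNA-seq was made by the submitters from 3 libraries of each group. The authors deposited raw counts per gene. Per the study's methods, reads were made with TruSeq stranded mRNA libraries, trimmed, aligned with HISAT2 and counted by strand with featureCounts against a GENCODE annotation of GRCh38. Instruments of single libraries are not given in the sources used here.

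From the deposited counts, 45283 of 45478 gene identifiers were named through GENCODE 44. Genes were filtered with filterByExpr, scaled by TMM and fitted with edgeR 4.0.16 in R 4.3.3, with 12 libraries in 4 group means, quasi-likelihood tests and Benjamini-Hochberg adjustment over 19929 genes. This tool gave every adjusted p, except where DESeq2 is named. Differences between the pairs were tested as an interaction term. Folds are ratios of mean CPM, and per-kilobase levels divide by the summed exon length. A limit of 3 counts per library stood for a count of 0, with 95% counting intervals; both cover counting error only. Replicates were compared, and no pair of libraries was alike within sampling noise.

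All collagen genes are accounted for, with values per library for 25. These had a mean of 10 CPM in any group, or of 1 CPM in the higher group and a called log2 fold change over 1. That change was between a resistant line and the parental line it is named for. From each of 3 lists of processing, cross-linking and receptor genes, up to 4 with a mean of 10 CPM and the largest changes from 786-O were named. The members and lists were chosen with earlier results of these data known. Alternatives were library size scaling, DESeq2 1.42.0, other filters, only the groups compared, a replicate block, removal of GC content and length trends, other prior counts, the raw-count test of the study's methods and leaving out each library. In simulated data for the comparison of resistant 786-O with 786-O, 194 of 200 genes changed 2-fold were found with 20 false calls, and 156 of 200 changed 1.5-fold with 14. The changed genes were drawn from those with a mean above 1 CPM, and all other genes had equal means in all groups. These rates thus do not cover collagen genes below 1 CPM or data in which most genes differ.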

Additional observations from a re-analysis of the deposited data

Results flagged for a closer look

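For 23 of the collagen genes given with values per library, the change from A498 to resistant A498 differed from that from 786-O to resistant 786-O by the interaction test of edgeR. The values below are the former log2 fold change minus the latter. The libraries labelled resistant A498 are closer to both 786-O lines than to A498 over all genes, which bears on each of these values, and its part in them was not tested. Among all genes tested, 68.3% were called by the same interaction test. Some genes were given with values per library because of a called change between a resistant line and the parental line it is named for. The count of 23 is thus a description only.

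Of the type IV genes, the difference was -0.26 for COL4A1, -0.95 for COL4A2, -1.51 for COL4A3, -3.11 for COL4A4, -1.64 for COL4A5 and -4.02 for COL4A6. Of the fibrillar genes it was -4.40 for COL1A1, -10.33 for COL5A1, -8.91 for COL5A3 and -2.80 for COL27A1. In type VI it was -2.40 for COL6A1, -2.18 for COL6A2 and 5.52 for COL6A3.

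Among fibril-associated genes it was -1.49 for COL9A2, -4.19 for COL12A1, 7.35 for COL14A1, -4.17 for COL16A1 and -10.37 for COL22A1. It was -0.83 for COL7A1, 0.77 for COL8A1, -4.90 for COL13A1, -2.09 for COL17A1 and -4.60 for COL28A1. The value of COL7A1 was -0.16 (adjusted p = 0.50) with GC content and length trends removed, and that of COL17A1 was -1.16 without replicate 2 of resistant 786-O. Without that replicate the values of COL6A3 and COL7A1 were 6.29 and -1.08. COL5A2, not called at 0.74 (adjusted p = 0.068), was called at 1.14 without it. COL5A3 and COL22A1 had 0 counts in 786-O, so that their values depend on the prior count and were -5.78 and -6.75 with a prior count of 2.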

How the results depend on the processing

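Over the alternatives run, 2928 of 3037 values of single genes kept their direction and their side of the threshold, 67 lost and 29 gained a call, and 13 reversed; the cause was not tested. With at least 10 counts in every library, 17 collagen genes were left to test. The shares of all genes called under this filter are not given here, so its counts are a description only. Resistant 786-O then had 13 higher and 2 lower than 786-O, resistant A498 had 5 higher and 10 lower than A498, 15 differed between the pairs, 10 were lower in 786-O than in A498, 9 were higher in resistant A498 than in 786-O, and by edgeR 0 were higher in resistant A498 than in resistant 786-O. Of the 33 genes under the usual filter, those called with a log2 fold change over 1 were 16 higher and 3 lower in resistant 786-O than in 786-O (16.2% and 5.76% of all genes), 6 and 15 in resistant A498 against A498 (14.3% and 16.5%), 3 and 20 in 786-O against A498 (12.1% and 19.8%), 13 and 4 in resistant A498 against 786-O (13.7% and 6.30%), and 2 and 7 in resistant A498 against resistant 786-O (2.91% and 4.396%).

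The raw-count test of the study's methods, which does not scale for depth, called 6 higher in resistant A498 than in A498, 7 higher and 11 lower than in 786-O, and 1 higher than in resistant 786-O. The shares of all genes called by it are not given here, so these counts are a description only. In that test, COL4A1 reversed to 0.30 for 786-O over A498. For resistant A498 over 786-O, COL1A1 was -0.016, COL4A2 -0.29, COL6A1 -0.38, COL6A2 -0.35, COL8A1 -0.47 and COL18A1 -0.033. For resistant A498 over resistant 786-O, COL1A1 was -0.69, COL4A4 -0.75, COL4A5 -0.84 and COL8A1 -0.81. Between the resistant lines, 1 gene was higher with only those groups fitted and 4 with GC content and length trends removed, where COL4A5 reversed to -0.26 for resistant A498 over A498.

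Leaving out each library in turn gave 21 to 25 higher and 3 to 5 lower in resistant 786-O than in 786-O, 8 to 11 and 15 to 17 in resistant A498 against A498, 18 to 20 and 5 to 7 against 786-O, and 1 to 3 and 11 to 13 against resistant 786-O, the 1 being without replicate 2 of resistant 786-O or replicate 3 of resistant A498. The shares of all genes called in these fits are not given here, so the counts are a description only. COL17A1 in resistant 786-O over 786-O ranged from -0.90, without replicate 2, to 0.40. The replicate numbers did not pair the libraries (r from -0.24 to 0.25). A replicate block kept 29 of 29 calls for resistant 786-O and 27 of 27 for resistant A498 against the parental lines they are named for. It kept 14 of 15 between the resistant lines.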
